A study of Solanum lycopersicum with 30 samples.

Results

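The 10 genes described here are clock genes of tomato (Solanum lycopersicum) leaf, taken by identifier from the deposited gene count table. The set was chosen with earlier results of these data known, so counts of its genes beside shares of all rows are a description. They are LHY (Solyc10g005080), LNK2 (Solyc01g068560), 3 pseudo-response regulator (PRR) genes (Solyc10g005030, Solyc04g049670 and Solyc03g081240), a TOC1-like gene (Solyc06g069690), a pair of GIGANTEA genes (Solyc04g071990 and Solyc12g056650), FKF1 (Solyc01g005300) and EID1 (Solyc09g075080). All 10 were among the 35596 rows of the table and all 10 passed the filter on low counts, which left 19431 rows. The gene names came with the choice of members, since the files pair identifiers with protein database entries and not with names.

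RNA was sequenced from 30 libraries in 10 groups of 3, each of vein-enriched tissue or of the intervein tissue between the veins, both dissected from the 4th true leaf. At T1, 29 days after sowing, the last water of the drought plants lay 6 days back, and the watered plants were given 150 mL on alternate days. The recovered plants of T2 had been through the same drought and were sampled 3 days after water was returned, beside plants watered throughout. A first watered group (T0) was taken at 25 days. Pots with 300 g of soil stood in a growth chamber with days of 16 h and nights of 8 h. The labels describe 3 plants for each condition at T1 and T2, so the libraries of a group at these times stand for different plants. For each gene the p-values rest on a spread estimated over all 30 libraries, both tissues and T0 included, and not on the compared plants alone. The fit took vein and intervein libraries of the same leaves as independent, so p-values of comparisons between tissues do not measure the spread between plants. The labels do not give the hour of collection, so the hour of the day and the age of the plant cannot be told apart between time points.

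The plant clock is a loop of genes that repress each other in turn over the day. In Arabidopsis, LHY is a MYB-type repressor of the evening genes that peaks around dawn, LNK2 is a coactivator of the morning phase, and PRR proteins, among them TOC1, repress LHY at successive times from day into night. GIGANTEA and the blue-light receptor FKF1 peak late in the day and act together in protein turnover and in day-length sensing, and EID1 is an F-box protein of phytochrome A light signalling. In tomato, changes in EID1 and LNK2 are known to accompany domestication and the slower rhythms of the cultivated plant.

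Total counts ran between 2718799 and 13641845 per library, the lowest in intervein T2 watered 1, and between 13740 and 20143 genes had a count. No tissue marker could be looked up by description, so the tissue labels were checked with 699 vein-preferred and 852 intervein-preferred genes called in the T0 libraries alone. The difference of their mean log2 CPM (counts scaled to the size of the library) lay between 0.70 and 2.06 in most vein libraries and between -4.10 and -2.44 in most intervein libraries. It was -3.14 in the library labelled vein T2 recovered 2, 0.49 in the library labelled intervein T2 recovered 1 and -0.54 in vein T1 drought 2. The T0 libraries, where the extremes 2.06 and -4.10 lie, gave the genes of this score, so their scores do not check their own labels. Intervein T1 drought 1 had the fewest genes detected and the largest share of counts on non-coding RNA models, 12.2% against 0.761% to 10.7% elsewhere. Log2 fold changes at T1 and T2 whose groups hold 1 of these 4 libraries are given with all libraries first, and the values without the 4 follow in the same paragraph or the next. Levels, counts of genes without overlap and the authors' values are given with all libraries.

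Levels are given as CPM with library sizes scaled by TMM factors, and they are compared between libraries and not between genes, because no gene length was given. Of these genes, 8 had counts in every library. The TOC1-like gene had 0 counts in 7 of 30 libraries and at most 66 counts in any, so its values rest on few reads. PRR Solyc10g005030 had 0 counts in 1 library, intervein T1 drought 1, where 3 counts would be 0.636 CPM. The within-group SD of log2 CPM ran between 0.39 for PRR Solyc04g049670 and 1.82 for the TOC1-like gene, against a median of 0.86 over all tested rows. The SD of EID1 was 0.40 and those of the GIGANTEA pair were 0.43 for Solyc04g071990 and 0.52 for Solyc12g056650.

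**Figure D1:**
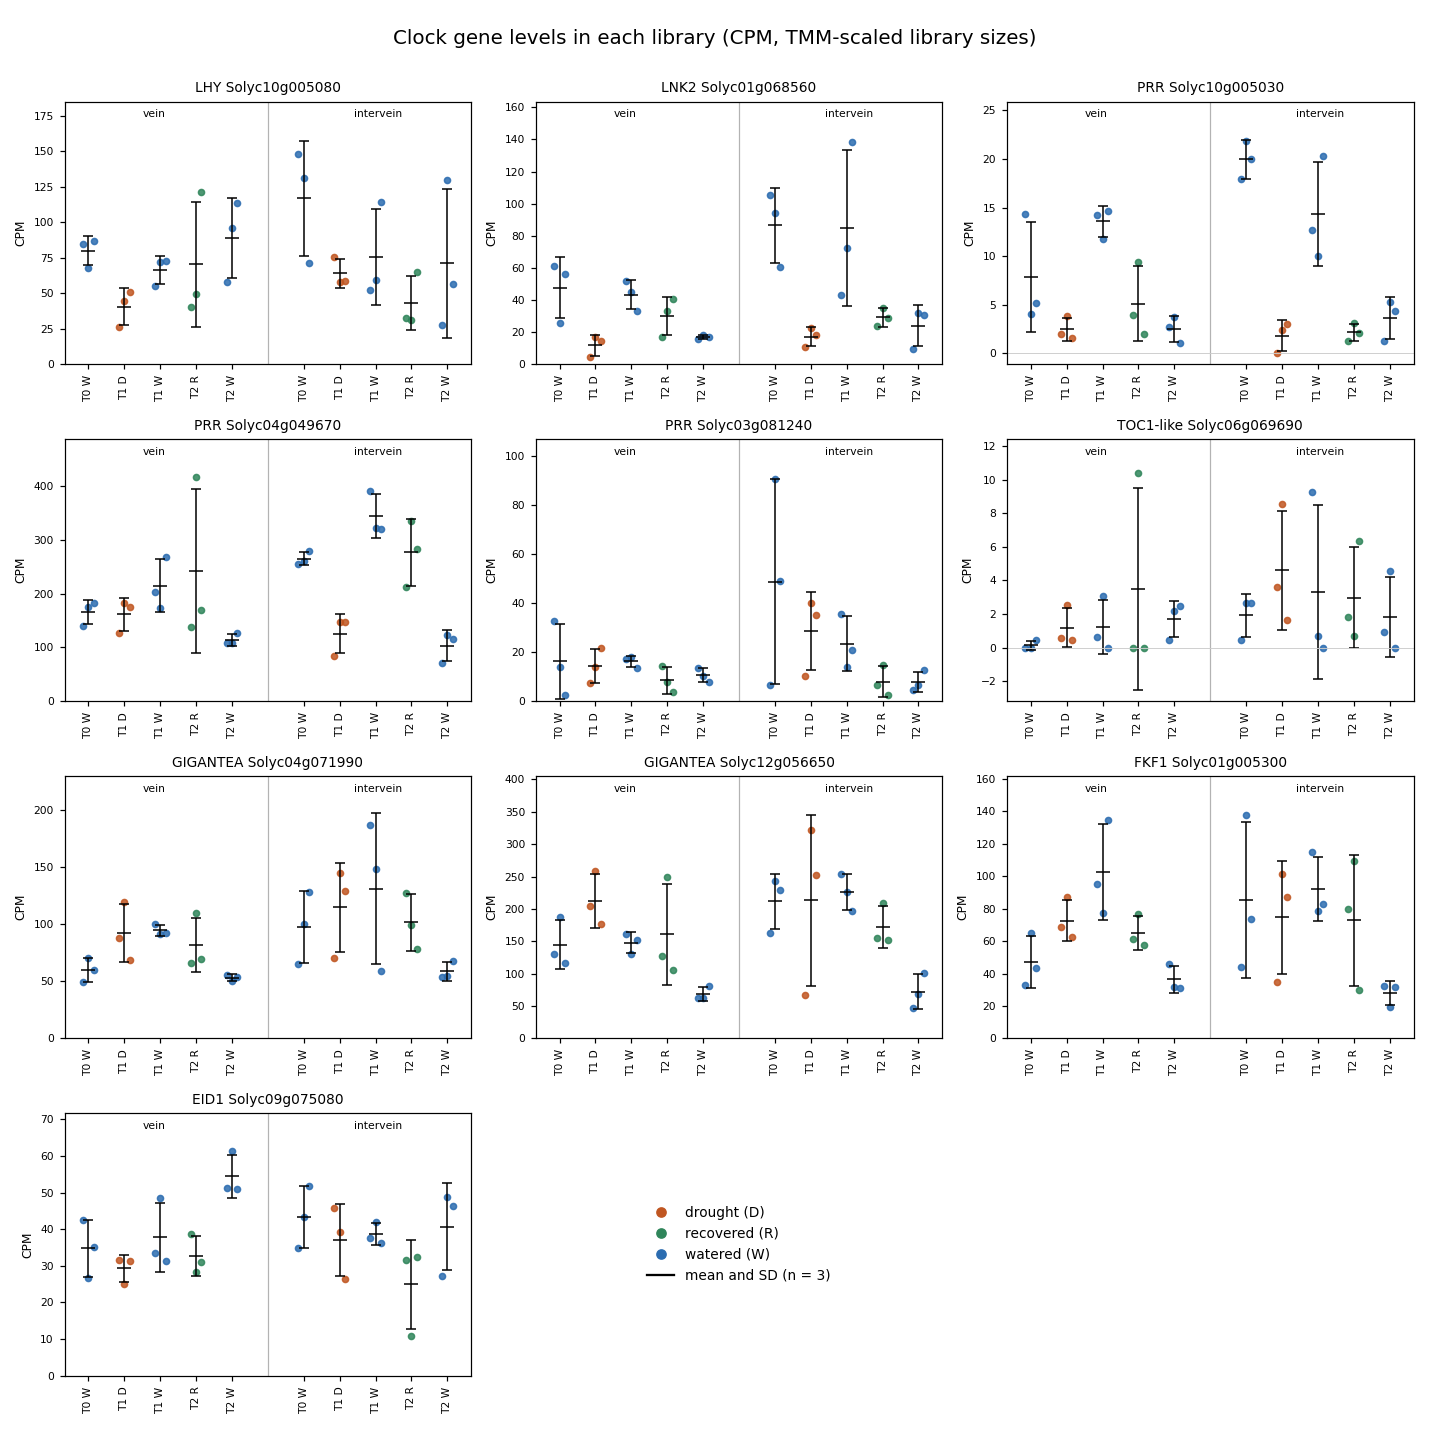
Each panel plots 1 clock gene, with the level in CPM on the vertical axis and the 10 groups on the horizontal axis (vein left, intervein right, T0 to T2, D drought, R recovered, W watered). Points are single libraries and bars are the mean and SD of 3 libraries. LNK2 and PRR Solyc10g005030 are low in both T1 drought groups, with vein and intervein means of 11.8 and 17.2 CPM for LNK2 and 2.50 and 1.82 CPM for the PRR gene. They are also low in the T2 watered groups, at 16.75 and 24.1 CPM for LNK2 and 2.53 and 3.65 CPM for the PRR gene. The GIGANTEA pair and FKF1 are low in the T2 watered groups. A bar that reaches below 0 for the TOC1-like gene is an SD wider than the mean.

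The 10 groups were spread by 2.18-fold in mean level for EID1, by 2.89-fold for LHY, by 7.34-fold for LNK2 and by 11.0-fold for PRR Solyc10g005030. The spread was 6.17-fold for PRR Solyc03g081240, between 48.7 ± 41.9 CPM in intervein T0 watered and 7.90 ± 4.21 CPM in intervein T2 watered (SD). It was 31.2-fold for the TOC1-like gene, whose lowest group, vein T0 watered, holds 4 counts in all. When groups were ordered by mean, neighbours in the order overlapped within their SDs in 9 of 9 pairs for every clock gene except GIGANTEA Solyc12g056650, with 8 of 9. LHY was highest in intervein T0 watered, at 117 ± 40.6 CPM (SD, n = 3), and lowest in vein T1 drought, at 40.5 ± 13.0 CPM. LNK2 had the same highest and lowest groups, at 86.6 ± 23.3 and 11.8 ± 6.54 CPM (SD, n = 3 each). PRR Solyc04g049670 was highest in intervein T1 watered, at 344 ± 40.1 CPM, and lowest in intervein T2 watered, at 103 ± 28.1 CPM (SD, n = 3 each). Both GIGANTEA genes had their highest mean in intervein T1 watered and their lowest in vein T2 watered. FKF1 ran between 103 CPM in vein T1 watered and 27.8 CPM in intervein T2 watered, and EID1 between 54.5 CPM in vein T2 watered and 25.0 CPM in intervein T2 recovered.

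After 6 days without water, 3 of the 10 clock genes fell in intervein tissue: the morning gene LNK2 and the repressors PRR Solyc10g005030 and PRR Solyc04g049670. None rose. LHY, the third PRR gene, the TOC1-like gene, the GIGANTEA pair, FKF1 and EID1 did not pass the test. Over all tested rows, 5.19% were called in this comparison, 2.51% higher and 2.68% lower (edgeR quasi-likelihood test, adjusted p under 0.05). The median log2 fold change of the 10 clock genes was -0.22, against -0.09 over all tested rows. In bulk tissue, fewer cells of a type and less RNA per cell cannot be told apart.

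LNK2 was at 10.8, 22.6 and 18.1 CPM in intervein drought leaf, against 43.3, 72.4 and 139 CPM in watered intervein at T1. The groups did not overlap, and LNK2 fell by 2.30 ± 0.51 (SE) on the log2 scale, 4.91-fold, with an adjusted p of 0.0178 by edgeR. The call was kept in 8 of 9 alternative settings and in 4 of 6 fits with 1 library left out. It was lost without intervein T1 drought 3 (adjusted p = 0.056 by edgeR) and without intervein T1 watered 3, the library with the highest LNK2 level (adjusted p = 0.0774).

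PRR Solyc10g005030 was at 0, 2.40 and 3.06 CPM in intervein drought leaf, against 12.7, 10.02 and 20.3 CPM in watered intervein. It also fell without overlap, by 2.92 ± 0.83 (SE) on the log2 scale, with an adjusted p of 0.0422 by edgeR. The library with 0 counts is intervein T1 drought 1, and without it the log2 fold change was -2.45 with an adjusted p of 0.0538. The call was lost in each of the 6 fits with 1 library left out, at adjusted p-values between 0.0536 and 0.12 and log2 fold changes between -3.49 and -2.45.

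PRR Solyc04g049670 was at 83.8, 147 and 146 CPM in intervein drought leaf, against 390, 322 and 320 CPM in watered intervein. Every drought library lay below every watered one, and the gene fell by 1.45 ± 0.34 (SE) on the log2 scale, 2.73-fold (adjusted p = 0.0202 by edgeR). The call was kept in 8 of 9 alternative settings and in 5 of 6 fits with 1 library left out, with an adjusted p of 0.0511 without intervein T1 drought 3. These 3 genes were the clock genes lower without overlap in intervein, where 12.3% of all tested rows were. With all 4 libraries that stood apart left out, all 3 were still called, at log2 fold changes of -2.14 for LNK2, -2.45 for PRR Solyc10g005030 and -1.27 for PRR Solyc04g049670. In a fit of the 6 compared libraries alone, 0 of the clock genes and 0% of all rows were called, with adjusted p-values of 0.169, 0.306 and 0.185 for these 3 genes in the same order.

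The evening genes of intervein leaf overlapped between drought and watered plants at T1. GIGANTEA Solyc12g056650 was at 66.8, 322 and 252 CPM in drought leaf, against 254, 227 and 198 CPM in watered leaf. The low value is that of intervein T1 drought 1, the library with many non-coding counts, and this library was also the lowest of the drought group for FKF1, at 34.99 CPM against 102 and 87.2 CPM in drought 2 and 3. The log2 fold change of GIGANTEA Solyc12g056650 was -0.08 ± 0.40 (SE) with all libraries and 0.30 without the 4 libraries that stood apart. GIGANTEA Solyc04g071990 was at -0.19 ± 0.35, or 0.037 without those libraries, and FKF1 at -0.30 ± 0.43. LHY was at -0.24 ± 0.48 and EID1 at -0.06 ± 0.33. FKF1 was at -0.001, LHY at -0.45 and EID1 at -0.28 without the 4 libraries, which leaves 2 drought libraries here.

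In vein at T1, edgeR called 0 clock genes, where it called 0.695% of all tested rows. At an unadjusted p under 0.05 there were 2 clock genes, LNK2 and PRR Solyc10g005030, against 12.0% of all rows, and DESeq2 called these 2, where it called 5.09% of all rows. DESeq2's shares are of the rows to which it gave an adjusted p. LNK2 was at 4.39, 16.8 and 14.2 CPM in drought vein, against 51.6, 45.02 and 33.4 CPM in watered vein. PRR Solyc10g005030 was at 2.05, 3.82 and 1.62 CPM in drought vein, against 14.2, 11.8 and 14.7 CPM in watered vein. For both genes all drought libraries lay below all watered ones. Their log2 fold changes were -1.88 ± 0.51 for LNK2 (adjusted p = 0.0798 by edgeR) and -2.43 ± 0.81 for PRR Solyc10g005030 (adjusted p = 0.165 by edgeR). Without the 4 libraries that stood apart, vein T1 drought 2 among them, LNK2 was at -2.225 with an adjusted p of 0.0924 and PRR Solyc10g005030 at -2.88 with an adjusted p of 0.0461 by edgeR.

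LHY was also lower without overlap in drought vein, at 25.9, 44.7 and 50.8 CPM against 54.7, 72.0 and 72.5 CPM in watered vein, with a log2 fold change of -0.71 ± 0.48 (adjusted p = 0.627 by edgeR). GIGANTEA Solyc12g056650 was higher without overlap, at 204, 258 and 176 CPM in drought vein and 162, 130 and 152 CPM in watered vein (log2 fold change 0.53 ± 0.40). That makes 3 clock genes lower and 1 higher without overlap in vein, where 12.0% of all tested rows were lower and 12.0% higher. PRR Solyc04g049670, which fell in intervein, was at -0.41 ± 0.33 in vein. With the 4 libraries left out, LHY was at -0.79 in vein, GIGANTEA Solyc12g056650 at 0.36 and PRR Solyc04g049670 at -0.51. LNK2 and PRR Solyc10g005030 were lower without overlap in both tissues, as 4.42% of all tested rows were. Both tissues were dissected from the same leaves, so these are not independent comparisons.

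Whether the drought response differed between the tissues was tested as a difference of responses, vein minus intervein. At T1 edgeR called 0 clock genes, with 1 at an unadjusted p under 0.05 against 5.65% of all rows, and DESeq2 called 0, where it called 0.381% of all rows. That 1 was PRR Solyc04g049670, with a difference of 1.04 ± 0.47 log2 units (adjusted p = 0.866 by edgeR). For LNK2 it was 0.42 ± 0.70. These differences were 0.76 for the PRR gene and -0.09 for LNK2 without the 4 libraries. A call in intervein and none in vein is therefore not shown to be a difference between the tissues, for any of the 3 genes.

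In the authors' deposited table, which gives a DESeq2 comparison of drought with watered leaf at T1, LNK2 was at a log2 fold change of -1.91 ± 0.51 (SE) in vein with an adjusted p of 0.00933, and at -2.41 ± 0.51 in intervein with an adjusted p of 0.000222. PRR Solyc10g005030 was at -2.48 ± 0.66 in vein and -3.01 ± 0.69 in intervein in the authors' deposited table, with adjusted p-values of 0.00894 and 0.000596. PRR Solyc04g049670 had an adjusted p of 0.62 in vein and of 0.000227 in intervein in the authors' deposited table. The other 7 clock genes had adjusted p-values between 0.565 and 1 in the authors' deposited table in both tissues.

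**Figure D2:**
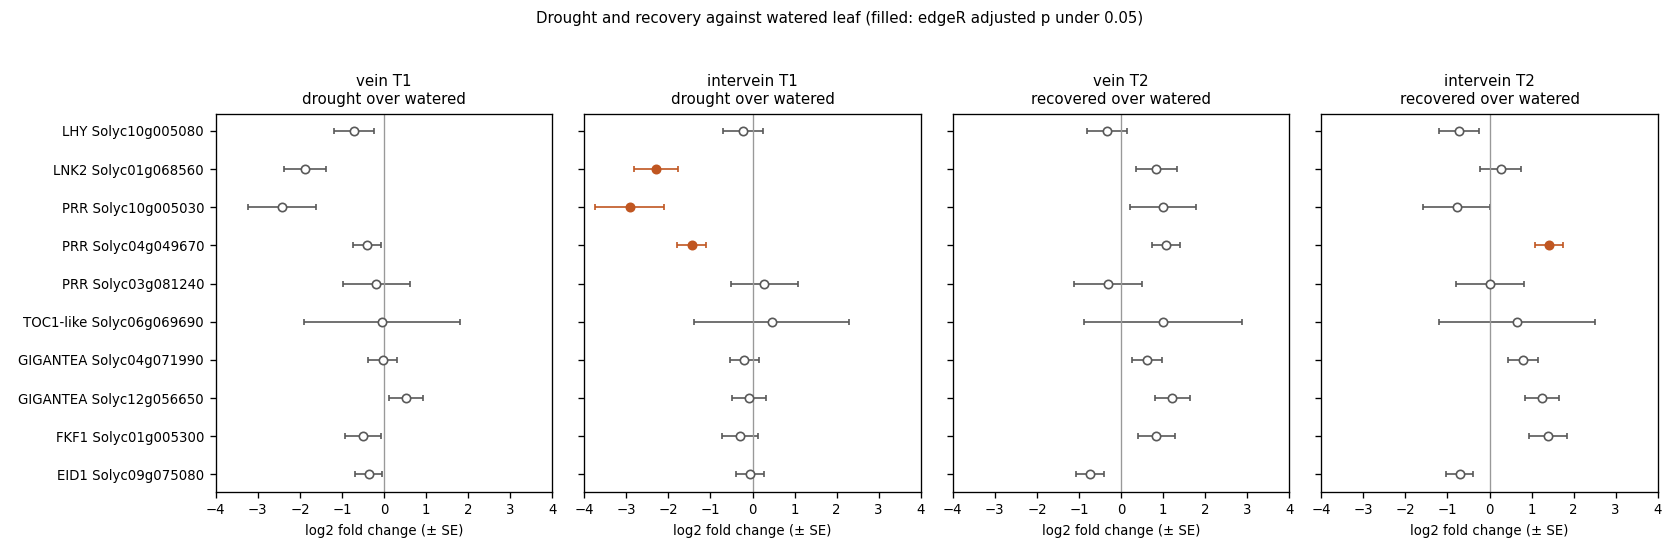
Each panel plots the log2 fold change of the 10 clock genes against watered leaf of the same tissue and time (horizontal axis), with bars of 1 SE on either side and filled points for an adjusted p under 0.05 by edgeR. LNK2, PRR Solyc10g005030 and PRR Solyc04g049670 are filled below 0 in intervein at T1, and PRR Solyc04g049670 is filled above 0, at 1.42, in intervein at T2.

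3 days after water was returned, 1 clock gene differed between recovered and watered intervein: PRR Solyc04g049670, which had been lower under drought, was higher in recovered leaf. Over all tested rows 0.772% were called in this comparison and 0.566% were called higher. The gene was at 212, 335 and 283 CPM in recovered intervein, against 71.4, 123 and 116 CPM in watered intervein at T2. The mean of 277 CPM in recovered intervein lay between those of watered intervein at T0 (265 CPM) and T1 (344 CPM), while the T2 watered mean was 103 CPM. Every recovered library lay above every T2 watered one. The gene was higher than in T2 watered leaf by 1.42 ± 0.34 (SE) on the log2 scale, 2.67-fold (adjusted p = 0.0455 by edgeR). The call was lost in each of the 6 fits with 1 library left out, at adjusted p-values between 0.0623 and 0.139 and log2 fold changes between 1.29 and 1.65. It was also lost in a fit of the compared groups alone (adjusted p = 0.164). Without the 4 libraries that stood apart, which include the library labelled intervein T2 recovered 1, the log2 fold change was 1.65 with an adjusted p of 0.00358.

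Both GIGANTEA genes lay without overlap above watered intervein at T2. Solyc12g056650 was at 156, 209 and 152 CPM in recovered leaf, against 47.1, 68.1 and 102 CPM in watered leaf. Its log2 fold change was 1.25 ± 0.41 (adjusted p = 0.127 by edgeR), and 1.39 with an adjusted p of 0.025 without the 4 libraries that stood apart. Solyc04g071990 was at 128, 99.3 and 77.9 CPM in recovered leaf, against 53.4, 54.7 and 68.0 CPM in watered leaf (log2 fold change 0.79 ± 0.35, adjusted p = 0.244 by edgeR). With PRR Solyc04g049670 these were 3 clock genes higher without overlap, where 11.0% of all tested rows were. FKF1 was at 79.7, 109 and 29.6 CPM in recovered leaf, against 32.2, 19.4 and 31.8 CPM in watered leaf, and overlapped through recovered 3 (log2 fold change 1.39 ± 0.44, adjusted p = 0.121 by edgeR). Means of watered intervein at T0 and T1 were 212 and 226 CPM for Solyc12g056650 and 97.7 and 131 CPM for Solyc04g071990. For FKF1 they were 85.2 and 91.9 CPM. LNK2, which fell under drought in this tissue, was at 0.26 ± 0.49 at T2, and PRR Solyc10g005030 at -0.78 ± 0.79. LHY was at -0.73 ± 0.48 and EID1 at -0.71 ± 0.33. Omission of the 4 libraries put GIGANTEA Solyc04g071990 at 0.66, FKF1 at 1.40, LNK2 at 0.465, PRR Solyc10g005030 at -0.45, LHY at -0.51 and EID1 at -0.86.

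In vein at T2, edgeR called 0 clock genes, where it called 1.57% of all tested rows. At an unadjusted p under 0.05 there were 3 clock genes, against 17.9% of all rows, and DESeq2 called 2, PRR Solyc04g049670 and GIGANTEA Solyc12g056650, where it called 9.55% of all rows. PRR Solyc04g049670 was at 138, 416 and 169 CPM in recovered vein, against 108, 108 and 127 CPM in watered vein. The highest value is that of the library labelled vein T2 recovered 2, whose tissue score lay among the intervein libraries. The log2 fold change was 1.08 ± 0.33 (adjusted p = 0.092 by edgeR), 0.41 without that library (adjusted p = 0.66) and 1.37 without vein T2 recovered 1 (adjusted p = 0.0234).

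GIGANTEA Solyc12g056650 was at 127, 249 and 106 CPM in recovered vein, against 63.1, 62.0 and 81.5 CPM in watered vein. Its log2 fold change was 1.22 ± 0.41 (adjusted p = 0.111 by edgeR), and 0.74 without the library labelled vein T2 recovered 2. GIGANTEA Solyc04g071990 (0.62 ± 0.35) and FKF1 (0.84 ± 0.44) were higher without overlap too. With PRR Solyc04g049670 these were 4 clock genes higher without overlap, where 12.5% of all rows were. EID1 was lower without overlap, at 38.8, 28.3 and 30.9 CPM in recovered vein and 51.3, 61.3 and 50.9 CPM in watered vein, as 14.8% of all rows were (log2 fold change -0.74 ± 0.33, adjusted p = 0.23 by edgeR). In a fit without the 4 libraries PRR Solyc04g049670 was at 0.41, GIGANTEA Solyc12g056650 at 0.74, GIGANTEA Solyc04g071990 at 0.34, FKF1 at 0.69 and EID1 at -0.66. PRR Solyc04g049670 and the GIGANTEA pair were higher without overlap in both tissues at T2, as 4.91% of all rows were. No clock gene passed the test of a T2 response that differs between tissues, with 0 called by edgeR, 0 at an unadjusted p under 0.05 against 5.38% of all rows, and 0 by DESeq2, which called 0.433% of all rows.

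The same genes were also followed over time within watered leaf, where sampling time was the difference between groups. A test over T0, T1 and T2 called 0 clock genes in vein by edgeR, as it called 0% of all tested rows, and DESeq2 called 0, where it called 0.716% of all rows. At an unadjusted p under 0.05 there were 5 of the 10 clock genes in vein, against 5.90% of all tested rows. In intervein edgeR again called 0, against 0.00515% of all rows, with 7 of 10 clock genes at an unadjusted p under 0.05 against 12.9% of all rows. DESeq2 called 6 there, where it called 3.34% of all rows. Without both T2 recovered libraries out of place edgeR called 1, PRR Solyc04g049670, and 0.0151% of all rows. Without all 4 libraries that stood apart it called this gene and GIGANTEA Solyc12g056650, and 0.328% of all rows.

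Between T0 and T1 in watered leaf, edgeR and DESeq2 called 0 clock genes in either tissue, as edgeR did of all rows (0%), which does not show equal levels. In vein the log2 fold changes ran from -0.265 for LHY to 2.915 for the TOC1-like gene. In intervein they ran from -1.055 for PRR Solyc03g081240 to 0.782 for the TOC1-like gene. DESeq2 called 0.129% of all rows in vein and 0.216% in intervein. FKF1 was the 1 clock gene at an unadjusted p under 0.05 in vein, where 1.98% of all rows were, and 0 were in intervein, where 4.18% of all rows were. FKF1 was at 95.4, 77.2 and 135 CPM in vein at T1, against 33.0, 64.7 and 43.3 CPM at T0 (log2 fold change 1.13 ± 0.44, adjusted p = 1 by edgeR). FKF1 and GIGANTEA Solyc04g071990 were higher at T1 without overlap in vein, where 2.74% of all rows were, and PRR Solyc04g049670 was in intervein, where 4.46% of all rows were.

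Between T1 and T2, 1 clock gene changed in watered leaf by edgeR. PRR Solyc04g049670 fell in watered intervein, to 71.4, 123 and 116 CPM at T2, against 390, 322 and 320 CPM at T1. The log2 fold change was -1.73 ± 0.34 (SE), 3.32-fold lower, with an adjusted p of 0.0374 by edgeR. It was the 1 clock gene called, where 0.185% of all rows were called and 0.118% were called lower. The call was lost in each of the 6 fits with 1 library left out, at adjusted p-values between 0.0547 and 0.158 and log2 fold changes between -1.94 and -1.59. DESeq2 called 6 clock genes lower: this PRR gene, LNK2, PRR Solyc10g005030, the GIGANTEA pair and FKF1. It called 3.73% of all rows lower.

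GIGANTEA Solyc12g056650 was at 47.1, 68.1 and 102 CPM in watered intervein at T2, against 254, 227 and 198 CPM at T1, without overlap (log2 fold change -1.64 ± 0.41, adjusted p = 0.0802 by edgeR). FKF1 was at 32.2, 19.4 and 31.8 CPM at T2, against 115, 78.4 and 82.6 CPM at T1 (-1.73 ± 0.45, adjusted p = 0.091 by edgeR). LNK2 was at 9.48, 32.0 and 30.7 CPM at T2, against 43.3, 72.4 and 139 CPM at T1 (-1.80 ± 0.50, adjusted p = 0.111 by edgeR). In all, 6 clock genes were lower at T2 without overlap in intervein, where 9.79% of all rows were. They were LNK2, the 3 PRR genes, GIGANTEA Solyc12g056650 and FKF1. LHY (-0.08 ± 0.48) and EID1 (0.08 ± 0.32) were near 0.

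In watered vein between T1 and T2 edgeR called 0 clock genes, as it called 0% of all rows, with 6 clock genes at an unadjusted p under 0.05 against 6.16% of all rows. DESeq2 called 1, PRR Solyc10g005030, where it called 0.627% of all rows. LNK2 was at 15.4, 18.2 and 16.7 CPM in watered vein at T2, against 51.6, 45.02 and 33.4 CPM at T1 (log2 fold change -1.37 ± 0.50, adjusted p = 0.682 by edgeR). PRR Solyc10g005030 was at 2.77, 3.74 and 1.08 CPM at T2, against 14.2, 11.8 and 14.7 CPM at T1 (-2.41 ± 0.81, adjusted p = 0.671 by edgeR). FKF1 was at 45.7, 32.0 and 31.4 CPM at T2, against 95.4, 77.2 and 135 CPM at T1 (-1.50 ± 0.44). These 3 genes, PRR Solyc04g049670 and the GIGANTEA pair were lower at T2 without overlap, which makes 6 where 11.6% of all rows were. EID1 was at 51.3, 61.3 and 50.9 CPM at T2, against 33.5, 48.6 and 31.3 CPM at T1 (0.53 ± 0.32).

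Between T0 and T2 edgeR called 0 clock genes in watered intervein, where it called 0.0412% of all rows. At an unadjusted p under 0.05 there were 7 clock genes, against 13.0% of all rows, and DESeq2 called 6, where it called 3.33% of all rows. All 10 log2 fold changes of T2 over T0 were below 0 in intervein, with a median of -1.45 against -0.04 over all tested rows, and 5 genes were lower without overlap, where 9.15% of all rows were. PRR Solyc03g081240, among those called by DESeq2, was at -2.61 ± 0.85 (adjusted p = 0.232 by edgeR). Its T0 levels were 6.71, 90.4 and 49.1 CPM, and the groups overlapped. In vein edgeR called 0, where it called 0% of all rows, with 2 at an unadjusted p under 0.05 against 8.89% of all rows, and DESeq2 called 0, where it called 1.51% of all rows.

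**Figure D3:**
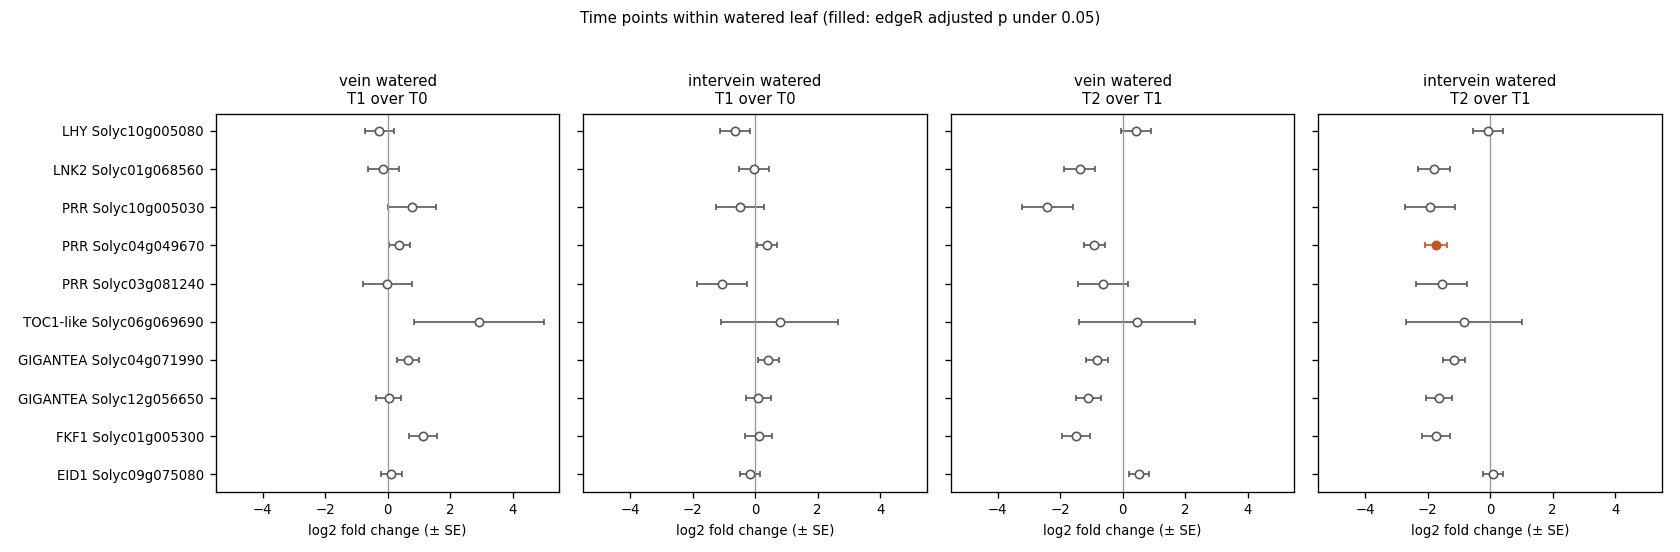
Each panel plots the log2 fold change of the 10 clock genes between time points of watered leaf in 1 tissue (horizontal axis), with bars of 1 SE on either side and filled points for an adjusted p under 0.05 by edgeR. T1 over T0 stands in the left panels and T2 over T1 in the right ones. PRR Solyc04g049670 in intervein, at -1.73, is the 1 filled point. LNK2, PRR Solyc10g005030, the GIGANTEA pair and FKF1 lie below 0 in both T2 over T1 panels.

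The drought comparison at T1 and the time comparison between T1 and T2 share the T1 watered libraries, and the time and recovery comparisons share the T2 watered libraries, so the values stand side by side here without a test between them. In intervein LNK2 had a log2 fold change of -2.30 for drought against watered at T1, -1.80 for watered T2 over T1, and 0.26 for recovered against watered at T2. PRR Solyc04g049670 had -1.45, -1.73 and 1.42 in the same order, and PRR Solyc10g005030 had -2.92, -1.94 and -0.78. GIGANTEA Solyc12g056650 had -0.08, -1.64 and 1.25, and FKF1 had -0.30, -1.73 and 1.39. Drought and watered plants of T1 had the same age at sampling, but the labels give no hour of collection for either. The fall of LNK2, PRR Solyc10g005030 and PRR Solyc04g049670 in drought intervein is a difference between plants of 1 time point. The part of the hour of collection in it was not tested. The GIGANTEA pair and FKF1 passed no drought test at T1 and had lower means in T2 watered leaf than in T1 watered leaf.

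Whether the difference from watered leaf itself changed between T1 and T2 was tested by subtracting the response at T1 from that at T2. In intervein 2 clock genes passed, PRR Solyc04g049670 with 2.87 ± 0.48 log2 units (SE, adjusted p = 0.00202 by edgeR) and LNK2 with 2.56 ± 0.70 (adjusted p = 0.0244 by edgeR). Over all tested rows 10.6% were called, 6.01% with a positive difference. LNK2 was at means of 84.8 CPM in watered intervein at T1 and 24.1 CPM at T2, and of 17.2 CPM in drought and 29.15 CPM in recovered leaf. For the PRR gene these means were 344, 103, 126 and 277 CPM in the same order. How much of each difference lies in the watered leaf was not tested. The PRR gene was called in 9 of 9 alternative settings and in 12 of 12 fits with 1 library left out, with differences between 2.75 and 3.14. LNK2 was called in 8 of 9 settings and in 11 of 12 such fits, with an adjusted p of 0.0738 without intervein T1 watered 3. The median of all tested rows was 0.23 for this difference and 0.36 with RLE size factors in place of TMM, where the values were 3.01 for the PRR gene and 2.76 for LNK2. Without the 4 libraries that stood apart the differences were 2.92 for the PRR gene (adjusted p = 0.00138 by edgeR) and 2.60 for LNK2 (adjusted p = 0.049 by edgeR). The number of clock genes called was 4 without intervein T1 drought 2, when GIGANTEA Solyc12g056650 and FKF1 were added and 10.2% of all rows were called. It was 3 without intervein T2 recovered 3, where 8.60% of all rows were called, and 1 without intervein T1 watered 3, where 6.64% were.

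In vein edgeR called 0 clock genes for this difference, where it called 1.50% of all rows, with 4 at an unadjusted p under 0.05 against 17.5% of all rows. DESeq2 called 3, LNK2, PRR Solyc10g005030 and PRR Solyc04g049670, where it called 7.96% of all rows. The values were 2.72 ± 0.71 for LNK2 (adjusted p = 0.0511 by edgeR), 3.43 ± 1.12 for PRR Solyc10g005030 and 1.49 ± 0.47 for PRR Solyc04g049670. They were 2.98, 3.065 and 0.92 in the same order without the 4 libraries, and 0 clock genes were called where 1.76% of all rows were. LNK2 was called without vein T1 drought 2, where 1.72% of all rows were, and LNK2 and PRR Solyc04g049670 were called without vein T2 recovered 1, where 2.50% of all rows were.

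LNK2 was lower in vein than in intervein over the 3 watered groups of each tissue, by 0.79 ± 0.28 log2 units (SE, adjusted p = 0.042 by edgeR). It was the 1 clock gene called, where 27.3% of all tested rows were called and 13.8% were called lower in vein. Both tissues came from the same plants, and with the plant, taken from the replicate number, as a replicate block the call ended (log2 fold change -0.70, adjusted p = 0.0847 by edgeR), while 20.9% of all rows were called. The call was kept in 6 of 18 fits with 1 library left out and lost in the others, with adjusted p-values between 0.0204 and 0.113 over the 18. It was lost without both T2 recovered libraries out of place (adjusted p = 0.051) and kept without all 4 libraries that stood apart (0.0435). Of the 10 genes, 9 had a value below 0, with a median of -0.43 against 0.09 over all tested rows. GIGANTEA Solyc04g071990 was at -0.44 ± 0.20 and PRR Solyc04g049670 at -0.40 ± 0.19, with adjusted p-values of 0.11 and 0.122 by edgeR.

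The GIGANTEA pair varied together across the libraries. Over the 30 libraries the Pearson correlation of their log2 CPM was 0.77, and Solyc12g056650 ranked at place 2 among 17538 rows in likeness to Solyc04g071990. FKF1 followed at place 3 with r = 0.75. PRR Solyc04g049670 was at place 130 with r = 0.57. The ratio of Solyc12g056650 to Solyc04g071990 ran between 0.882 in intervein T2 watered 1 and 3.37 in intervein T1 watered 3. Reads shared between related copies could have been split by the counting, so the division of counts between the pair is uncertain. The part of such reads in the correlation of the pair was not tested.

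Among the clock genes, LHY was least like FKF1 (r = -0.25) and the GIGANTEA pair, with r = -0.35 to Solyc04g071990 and -0.16 to Solyc12g056650. It was most like LNK2, at place 6 of 17538 with r = 0.59, and EID1, at place 43 with r = 0.50. LNK2 and PRR Solyc10g005030 had r = 0.78. Without the 4 libraries that stood apart, r was 0.78 for the GIGANTEA pair, 0.63 for LHY with LNK2 and -0.27 for LHY with GIGANTEA Solyc04g071990. These correlations are a description, since the libraries share plants, groups and sequencing pool.

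**Figure D4:**
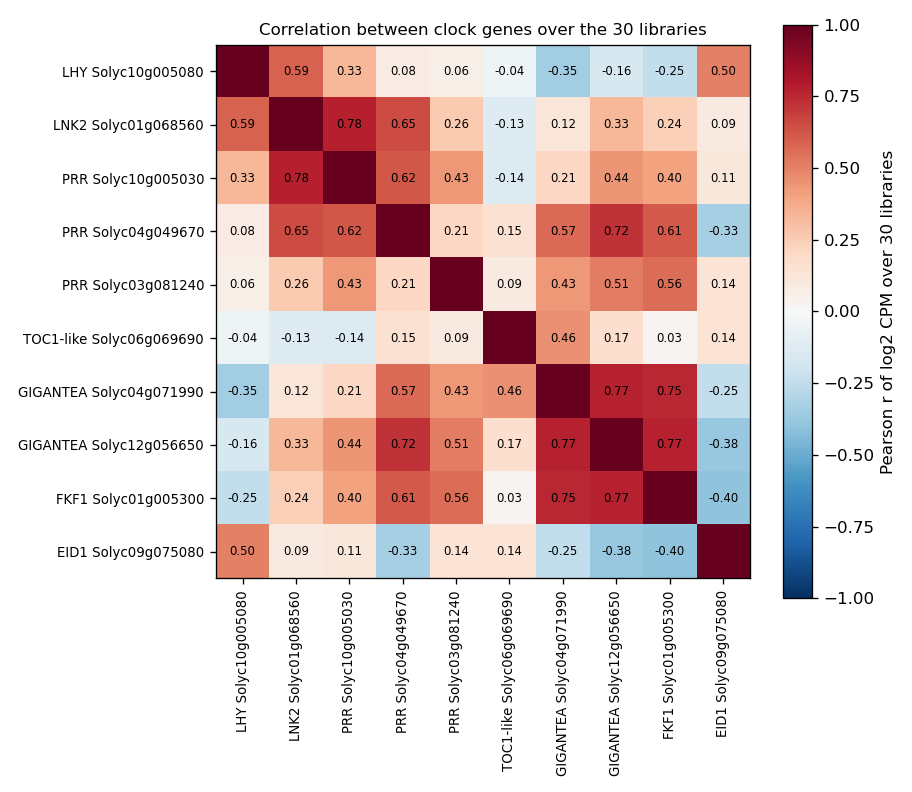
The grid gives the Pearson correlation of log2 CPM over the 30 libraries for each pair of clock genes, with colour and printed value on a scale between -1 and 1. The GIGANTEA pair and FKF1 form a block of values between 0.75 and 0.77, LNK2 and PRR Solyc10g005030 stand at 0.78, and LHY lies below 0 against the GIGANTEA pair and FKF1.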

How the data were processed

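RNA was measured in 30 libraries of vein and intervein leaf (10 groups of 3). Per the labels' protocols, stranded mRNA libraries were sequenced as single reads. The tools named are DESeq2 1.20.0, StringTie 1.3.3b, HISAT2 2.1.0 and FastQC 0.11.5, per the submitters' processing notes. The genome build, annotation, counting strand and treatment of reads that map to several genes were not given in the sources used here. The deposited counts are whole, unnormalized counts per gene, a KBase gene count matrix per the file headers. The authors also deposited a T1 comparison of drought with watered leaf, with a log2 fold change and its SE on the log2 scale and an adjusted p-value, which are quoted and entered no test here. All 30 count columns were matched by name and 0 were left out.

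The counts were tested with edgeR 4.0.16 in R 4.3.3: filterByExpr on the group (19431 rows with 99.946% of counts), TMM scaling, and 1 quasi-likelihood fit of all 30 libraries (glmQLFit, glmQLFTest, two-sided, 20 residual degrees of freedom). Benjamini-Hochberg adjustment ran over all tested rows of each of 17 comparisons, and calls needed an adjusted p under 0.05. SEs are approximate, the size of the log2 fold change divided by the square root of F. Log2 CPM used a prior count of 2. The fit was tested on simulated data. Alternatives were DESeq2 1.42.0, RLE size factors, library sizes from Solyc rows, no or a stricter count filter, compared groups only, a replicate block, and omission of libraries. The replicate block was the replicate number within each tissue, or the condition with the number for comparisons between tissues. Total counts of 2718799 to 13641845 limit the precision of genes with few counts, and floors for 0 counts cover counting error only.

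The members and lists were chosen with earlier results of these data known. By rule all 10 members are named, with the 2 rows most and least correlated with LHY and with the first GIGANTEA gene. Other clock and light genes, and tissue markers, were looked for by gene description, and 0 were found, since 0 identifiers were among the 41476 genes of the reference table. No sequences are printed, as none were at hand for these genes. The tissue score is the mean log2 CPM of vein-preferred genes minus that of intervein-preferred genes.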

Additional observations from a re-analysis of the deposited data

Results flagged for a closer look

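In intervein, the difference from watered leaf was not the same at T1 and T2 for PRR Solyc04g049670 and LNK2. The response at T2 less that at T1 was 2.87 ± 0.48 log2 units (SE) for PRR Solyc04g049670 (adjusted p = 0.00202 by edgeR) and 2.56 ± 0.70 for LNK2 (adjusted p = 0.0244 by edgeR).

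PRR Solyc04g049670 lay below watered intervein in 3 of 3 drought libraries at T1 (log2 fold change -1.45) and above it in 3 of 3 recovered libraries at T2 (log2 fold change 1.42). The T2 watered libraries were themselves lower than those of T1, with a log2 fold change of -1.73 for T2 over T1. For LNK2 the log2 fold change of watered intervein, T2 over T1, was -1.80 (adjusted p = 0.111 by edgeR). The part of the hour of collection in these values was not tested.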

How the results depend on the processing

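The counts of clock genes called moved with the test and with the libraries in the fit, and the cause was not tested. Shares in brackets are of all rows tested in the same fit. By DESeq2 they were 2 in vein (5.09%) and 3 in intervein (14.1%) for T1 drought against watered, where edgeR called 0 and 3, 2 (9.55%) and 3 (7.64%) for T2 recovered against watered (edgeR 0 and 1), and 6 (3.34%) over the intervein time points (edgeR 0). They were 1 in vein (0.627%) and 6 in intervein (5.64%) for watered T2 over T1 (edgeR 0 and 1), 6 in intervein (3.33%) for watered T2 over T0 (edgeR 0), and 3 in vein (7.96%) and 4 in intervein (19.9%) for the change of response between T1 and T2 (edgeR 0 and 2). A fit of the compared groups alone, which has fewer residual degrees of freedom, called 1 in vein (1.95%) and 0 in intervein (0%) at T1, 0 in intervein at T2 (0%), 0 for watered T2 over T1 in intervein (0%), 2 between tissues (32.0%), and 1 in vein (3.69%) and 1 in intervein (3.59%) for the change of response. RLE size factors gave 1 for the change of response in vein (1.65%), and no filter on low counts gave 0 between tissues (21.6%). Without the 4 libraries that stood apart the counts were 1 in vein at T1 (0.833%), 2 in intervein at T2 (1.37%), 2 over the intervein time points (0.328%), 2 for watered T2 over T1 (0.914%) and 2 for T2 over T0 in intervein (0.364%), and 2 between tissues (31.8%). Without both T2 recovered libraries out of place they were 1 over the intervein time points (0.0151%), 1 for watered T2 over T0 in intervein (0.0603%) and 0 between tissues (28.3%).

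With 1 library left out at a time, the counts ran from 0 to 2 for intervein at T1 (1.03% to 4.92%), from 0 to 1 for vein at T2 (0% to 5.62%, the highest without vein T2 recovered 1), at 0 for intervein at T2 (0.0351% to 0.647%), at 0 for watered T2 over T1 in intervein (0% to 0.406%), from 0 to 1 between tissues (23.0% to 26.2%), and from 0 to 2 in vein (0.206% to 2.50%) and 1 to 4 in intervein (4.51% to 11.2%) for the change of response.

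The values whose sign turned had not passed their own test in the fit of all libraries. Without the 4 libraries, GIGANTEA Solyc04g071990 was at 0.037 and Solyc12g056650 at 0.30 in intervein at T1. The TOC1-like gene in vein at T2 was at -6.88 without both T2 recovered libraries out of place and at -6.89 without the 4 libraries, where the 2 recovered vein libraries left hold 0 counts of it, so this fitted value is no bound. With 1 library left out at a time, the log2 fold changes in vein at T1 ran from -0.60 to 0.12 for PRR Solyc03g081240, -0.27 to 0.13 for GIGANTEA Solyc04g071990 and -1.20 to 1.88 for the TOC1-like gene. In intervein at T1 they ran from -0.11 to 0.66 for PRR Solyc03g081240, -0.55 to 0.099 for GIGANTEA Solyc04g071990, -0.58 to 0.30 for Solyc12g056650, -0.38 to 3.54 for the TOC1-like gene, -0.28 to 0.13 for EID1 and -0.52 to 0.16 for LHY. In vein at T2 they ran from -0.91 to 0.034 for PRR Solyc03g081240 and -6.90 to 1.60 for the TOC1-like gene. In intervein at T2 they ran from -0.019 to 0.61 for LNK2, -0.73 to 0.57 for PRR Solyc03g081240, -0.52 to 2.82 for the TOC1-like gene and -1.10 to 0.11 for LHY. Over the log2 fold changes of the clock genes at T1 and T2 and the 4 other called values, under all alternatives, 596 kept direction and side of the threshold, 45 lost the call, 10 gained one and 32 changed sign.

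The replicate numbers were not shown to pair the samples. Deviations of same-numbered stressed and watered libraries correlated between -0.167 and 0.214, over 0.1 in 4 of 12 pairs, and 5 of 12 libraries correlated best with their own number. For vein and intervein of one condition the range was -0.267 to 0.334, with 6 of 15 pairs over 0.1 and 9 of 15 libraries best with their own number. With the replicate number within each tissue as a block, the counts were 0 in intervein at T2 (0.160%) and 0 for watered T2 over T1 in intervein (0%). A different block, the condition with the replicate number, was used between tissues, where the count was 0 (20.9%). In the fit blocked by number within tissue, PRR Solyc03g081240 was at 0.003 in vein and -0.11 in intervein at T1. It was at -0.015 in intervein at T2, and the TOC1-like gene was at 0.18 in vein at T1 and -0.63 at T2. Depth limits the TOC1-like gene most, with at most 66 counts in a library.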

Other observations

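Beyond the clock genes, Solyc07g063120 (r = 0.72) and Solyc03g098320 (r = 0.68) had the highest Pearson correlations with LHY over the 30 libraries, and Solyc01g005110 (r = -0.64) and Solyc03g081200 (r = -0.62) the lowest. For GIGANTEA Solyc04g071990 the highest were Solyc01g009820 (r = 0.79) and Solyc04g005860 (r = 0.73), and the lowest were Solyc01g090270 (r = -0.72) and Solyc02g090680 (r = -0.71). The files give no names for these 8 genes, and the correlations are a description over libraries that share plants and groups.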
